A study of Solanum lycopersicum with 21 samples.

Results

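In tomato leaf DNA, 467 regions held binding peaks of complexes with both J and J2, together with both FUL2 and MC, but no peak of a complex with TM3. Peaks of 6 DAP-seq lists that overlapped by at least 1 bp were joined, which gave 26850 regions in all, and the 467 were selected on which lists had a called peak in them. The 467 regions were 1.74% of these (95% Wilson interval 1.59 to 1.90%, counting error over regions only). They are called TM3-free regions here, which says only that neither TM3 list had an overlapping peak. Another 3290 regions met the same requirement for J, J2, FUL2 and MC and did hold a TM3 peak, and these TM3-holding regions served for comparison. Of the 3757 regions of both kinds, 12.4% (11.4 to 13.5%) were TM3-free.

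All 5 proteins are MADS-domain transcription factors of the tomato reproductive meristem. Such proteins bind a short A/T-rich element, the CArG-box, as dimers, and pairs of dimers can join into tetramers that hold DNA at a pair of sites. FUL2 is a FRUITFULL-like protein and MC (MACROCALYX) the APETALA1 ortholog. J (JOINTLESS), the ortholog of Arabidopsis SVP, maintains the identity of the inflorescence meristem, J2 acts in the maturation of the floral meristem, and TM3, a SOC1-like protein, promotes the transition to flowering.

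In DAP-seq, proteins made outside the cell are incubated with fragments of naked genomic DNA, and the fragments that they retain are sequenced. Each of the 6 complexes paired one of the partners J, J2 and TM3 with FUL2 or MC, and is written FUL2-J, MC-J and so on. They were made in a wheat germ extract with a FLAG tag on FUL2 or MC, with 3 libraries each and 3 input libraries from an extract without plasmid, 21 samples in all. The DNA came from leaves of the cultivar Moneyberg, so that binding was measured on naked DNA, outside the plant cell. The authors merged the libraries of a complex before calling peaks, so that each complex has 1 list and no value per replicate. All differences below therefore lack a replicate error, and regions of 1 genome do not stand in for replicates.

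Each peak carries a fold enrichment of the reads at its summit over the local background of the input, and a −log10 q, where a higher value means a smaller false discovery rate. Because the lists differed in depth, strength was also given as a percentile, the rank of a peak by −log10 q within its own list from 0 for the weakest to 100 for the strongest. The lists held from 4677 (MC-J2) to 11457 (MC-TM3) peaks. Solving the peak caller's formulas for whole reads gave a depth relative to the input of 1.53 for FUL2-J, 1.68 for MC-J, 2.18 for FUL2-J2 and 1.99 for MC-J2. The TM3 libraries were the shallowest, at 1.44 for FUL2-TM3 and 1.29 for MC-TM3, and the J2 libraries, which gave the shortest lists, were the deepest. The part of depth in the absence of a TM3 peak was not tested.

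FUL2-J was the most frequent complex of the TM3-free regions and MC-J the least frequent. A FUL2-J peak was present in 414 of the 467 regions (88.7%), a FUL2-J2 peak in 365 (78.2%), an MC-J2 peak in 340 (72.8%) and an MC-J peak in 298 (63.8%). Over all regions, 38.9% held a FUL2-J peak, 18.4% a FUL2-J2 peak, 17.4% an MC-J2 peak, 40.3% an MC-J peak, 39.6% a FUL2-TM3 peak and 42.1% an MC-TM3 peak. The required combination of J, J2, FUL2 and MC was met by 14%. The rule used these same calls, so nothing is read from the difference. In the TM3-holding regions the order of the complexes was the same, with 95.9% for FUL2-J, 89.4% for FUL2-J2, 87.5% for MC-J2 and 78.0% for MC-J. No TM3-free region had more than 1 peak of any list.

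The rule allowed 7 combinations of the 4 J and J2 complexes, and all of them occurred. All 4 complexes were present in 111 TM3-free regions (23.8%, 20.1 to 27.8%), against 56.7% (55.0 to 58.4%) of the TM3-holding regions. Almost as frequent were FUL2-J with FUL2-J2 and MC-J2 in 107 regions (22.9%) and FUL2-J with MC-J and FUL2-J2 in 94 (20.1%). These made up 17.5% and 11.1% of the TM3-holding regions. Crossed pairs, in which J and J2 were each seen with a different protein, were FUL2-J with MC-J2 in 62 regions (13.3%) and MC-J with FUL2-J2 in 33 (7.07%), against 4.47% and 1.43% of the TM3-holding regions. The remaining regions held FUL2-J with MC-J and MC-J2 (40 regions, 8.57%) or MC-J with FUL2-J2 and MC-J2 (20 regions, 4.28%). The intervals of these last combinations overlapped with those of the TM3-holding regions. Thus 3 complexes were the usual number, in 261 regions (55.9%), and 2 were seen in 95 (20.3%).

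**Figure D1:**
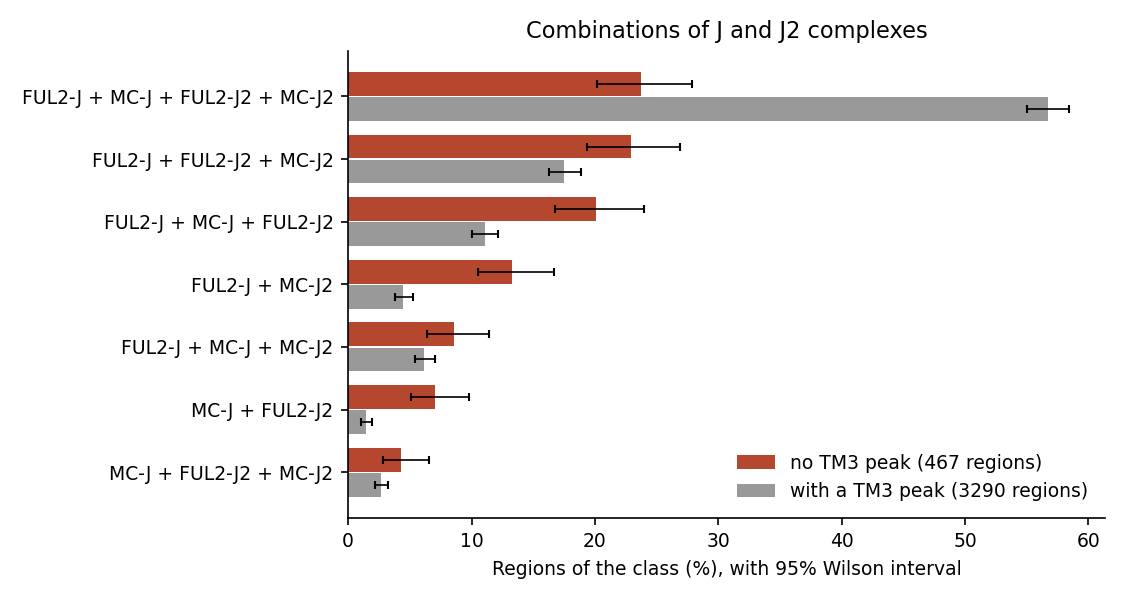
Share of regions (%, x axis) with each combination of J and J2 complexes (y axis), for the 467 regions without and the 3290 with a TM3 peak; error bars are 95% Wilson intervals. All 4 complexes together made up 23.8% of the regions without and 56.7% of those with a TM3 peak, and the other 6 combinations were each a larger share of the regions without, with overlapping intervals where MC-J and MC-J2 joined FUL2-J or FUL2-J2.

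Read the other way, the share of regions that lacked TM3 was lower where more J and J2 complexes were present. It was 32.9% (27.7 to 38.5%) with 2 complexes, 17.5% (15.7 to 19.5%) with 3 and 5.61% (4.68 to 6.72%) with all 4. Among single combinations it was highest for MC-J with FUL2-J2, where 33 of 80 regions had no TM3 peak. It was 29.7% for FUL2-J with MC-J2. Both J complexes were present in 245 TM3-free regions (52.5%), both J2 complexes in 238 (51.0%), both FUL2 complexes in 312 (66.8%) and both MC complexes in 171 (36.6%). The corresponding shares of the TM3-holding regions were 74.0%, 76.9%, 85.3% and 65.5%.

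The peaks of the TM3-free regions were of middling strength within their lists. The median percentile was 52.8 (48.7 to 57.4, binomial interval) in the FUL2-J list, 56.4 (50.5 to 61.6) in MC-J, 47.8 (42.8 to 52.5) in FUL2-J2 and 40.8 (36.1 to 44.9) in MC-J2. In the TM3-holding regions the medians were 70.0, 65.2, 62.7 and 62.8. Only the interval of MC-J2 lay wholly below the middle of its list. That of MC-J began at 50.5, the median percentile of all peaks of its list, and none lay wholly above the middle. With each list cut to its 4000 strongest peaks, the medians became 58.9 for FUL2-J2 and 57.3 for MC-J2. The percentiles stayed those of the uncut lists, so this cut raises all 4 medians by construction, and nothing is read from it. Since the same calls chose the regions, these medians are a description.

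In fold the distance was smaller. The median fold in the TM3-free regions was 4.39 for FUL2-J (range 2.13 to 8.39), 4.22 for MC-J (2.08 to 8.34), 4.25 for FUL2-J2 (2.22 to 6.79) and 4.27 for MC-J2 (2.31 to 6.88). The TM3-holding regions had median folds of 4.72, 4.32, 4.45 and 4.63. The largest folds were found in J lists. The region chr3:42252901-42253371 had the highest FUL2-J fold, 8.39, with 6.51 for MC-J and 3.85 for FUL2-J2, and no MC-J2 peak. The highest MC-J fold, 8.34, was at chr4:10269899-10270359, where FUL2-J had 8.01 and FUL2-J2 4.80, again without an MC-J2 peak.

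Few of the strongest J2 peaks lay in TM3-free regions. The strongest 10% of the FUL2-J2 list contained 5 of the 365 peaks in TM3-free regions (1.37%) and that of the MC-J2 list 7 of 340 (2.06%), whereas 16.3% and 15.8% of the peaks in TM3-holding regions were this strong. For J the strongest 10% held 32 of 414 FUL2-J peaks (7.73%) and 33 of 298 MC-J peaks (11.1%), against 21.1% and 19.2%. The number of reads at the summit ranged from 56 to 206 for FUL2-J (median 88), from 55 to 239 for MC-J (median 100), from 72 to 238 for FUL2-J2 (median 118) and from 71 to 202 for MC-J2 (median 104). Values of reads could be given for at least 95.3% of these peaks in each list.

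**Figure D2:**
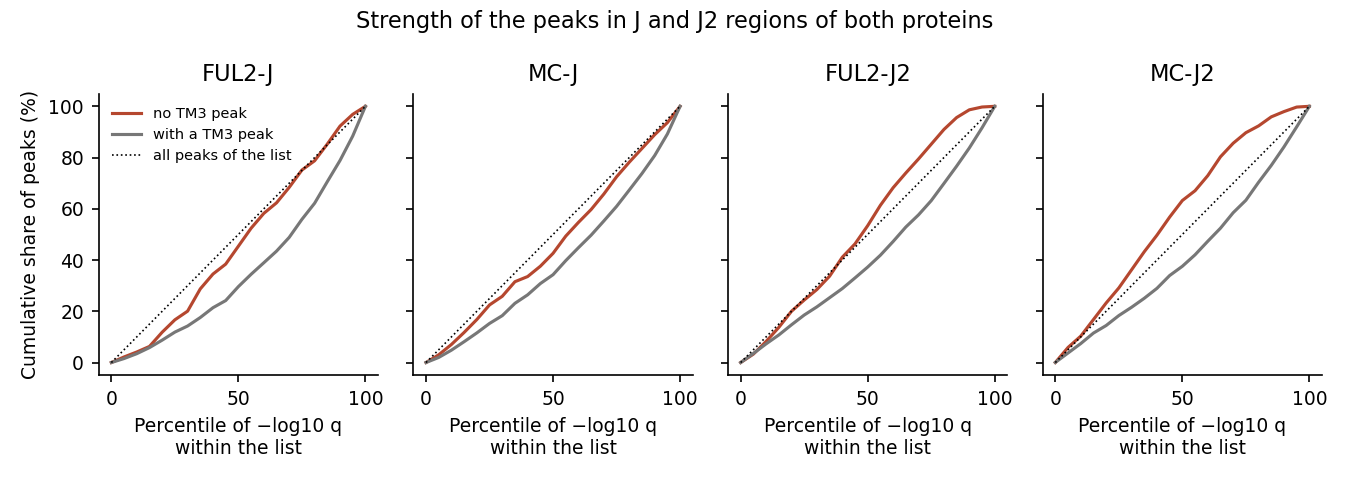
Cumulative share of peaks (%, y axis) against their percentile of −log10 q within the list (x axis) for the 4 J and J2 lists, in regions without and with a TM3 peak; the dotted line stands for all peaks of a list. From percentile 10 to 95 the curve of the regions without TM3 lies above that of the regions with TM3 in all 4 panels. At percentile 5 it lies below in the FUL2-J2 panel (3.29% against 3.54%). The median percentiles are 52.8, 56.4, 47.8 and 40.8 against 70.0, 65.2, 62.7 and 62.8.

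The same peaks can be given as the share of J and J2 regions without TM3 by strength in each list, which is a second view of the values above and not a separate result. In the weakest 25% of each list, 15.6% (FUL2-J), 14.6% (MC-J), 14.04% (FUL2-J2) and 15.8% (MC-J2) of the regions lacked TM3. From 25 to 50% of the list the shares were 17.5%, 10.97%, 16.1% and 17.4%, and from 50 to 75% they were 12.9%, 11.5%, 13.2% and 10.8%. In the strongest 25% they were 6.88% (5.71 to 8.28%), 7.55% (6.12 to 9.28%), 4.75% (3.66 to 6.15%) and 3.21% (2.32 to 4.43%). The lower share was therefore found mainly in the strongest 25% and did not run evenly through the lists. In the strongest 10%, 5 of 483 FUL2-J2 regions (1.04%) and 7 of 463 MC-J2 regions (1.51%) lacked TM3, beside 4.57% for FUL2-J and 6.26% for MC-J. When each list was cut to its 4000 strongest peaks, the overall share without TM3 was 23.3% in place of 12.4%.

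**Figure D3:**
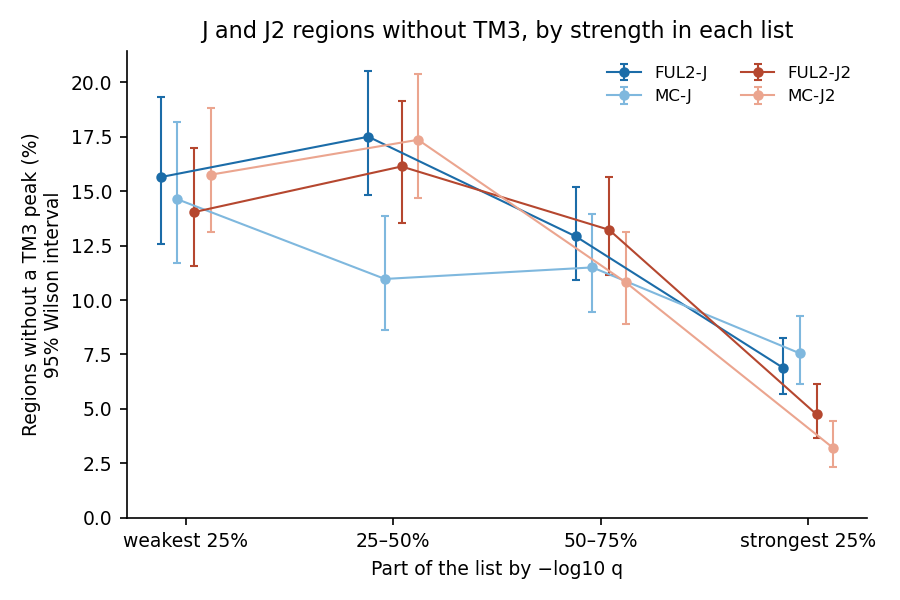
Share of J and J2 regions without a TM3 peak (%, y axis) by part of each list, from the weakest to the strongest 25% by −log10 q (x axis), for the 4 J and J2 lists; error bars are 95% Wilson intervals. The strongest parts lie between 3.21% and 7.55% and the weakest between 14.04% and 15.8%.

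Strength within a list differed between the combinations. FUL2-J peaks that had an MC-J peak in the same TM3-free region reached a median percentile of 65.7 (245 regions), against 37.3 (169 regions) where MC-J was missing. For J2 the corresponding values were 52.5 for FUL2-J2 with MC-J2 (238 regions) and 36.1 without (127 regions). A peak of the same partner with the other protein thus went with a stronger peak. Across partners this was not so beside an MC-J2 or an MC-J peak. FUL2-J peaks with an MC-J2 peak had a median percentile of 50.5 (320 regions) and those without one of 66.0 (94 regions), and for MC-J the values were 50.5 (171 regions) and 61.6 (127 regions). In the TM3-holding regions the order was the opposite, with 71.1 against 64.3 for FUL2-J and 67.8 against 50.5 for MC-J. With and without an MC-J peak, the medians in TM3-free regions were 47.8 and 50.8 for FUL2-J2, and 37.5 and 44.9 for MC-J2. In the TM3-holding regions these were 64.8 and 57.1, and 66.8 and 50.9. By the rule, the 94 regions without MC-J2 were all of the combination FUL2-J, MC-J and FUL2-J2. In it the J peaks were strong, with median percentiles of 66.0 (FUL2-J) and 66.3 (MC-J), and the FUL2-J2 peak was weaker, with 37.1. Both crossed pairs had low medians for J2, 30.3 for MC-J2 beside FUL2-J and 25.9 for FUL2-J2 beside MC-J.

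In the 111 TM3-free regions with all 4 complexes, the median folds were 4.72 for FUL2-J, 4.40 for MC-J, 4.41 for FUL2-J2 and 4.23 for MC-J2. The median percentiles, each within its own list, were 70.0 for FUL2-J, 58.1 for MC-J, 55.8 for FUL2-J2 and 39.7 for MC-J2. In the 1866 TM3-holding regions with all 4 complexes they were 81.2, 70.4, 72.7 and 70.9, so that the gap between the kinds of region was widest for MC-J2. The highest fold belonged to FUL2-J in 59 regions, to FUL2-J2 in 20, to MC-J2 in 17 and to MC-J in 15. The lowest fold was that of MC-J in 42 regions and that of MC-J2 in 41. Within a region the folds lay close together, the highest being 1.02 to 2.15 times the lowest (median 1.31), and the 4 summits spanned 2 to 343 bp (median 34 bp). All 4 percentiles were at least 50 in 19 of the 111 regions (17.1%, 11.2 to 25.2%), against 47.3% (45.1 to 49.6%) of the TM3-holding regions with 4 complexes. All 4 were at least 75 in 6 of them (5.41%).

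The single regions named next were picked by their weakest percentile, so strong peaks in all 4 lists follow from the choice. The TM3-free region whose weakest peak ranked highest was chr2:7519644-7520074, with folds of 7.90 for FUL2-J, 6.64 for MC-J, 5.67 for FUL2-J2 and 5.82 for MC-J2. All 4 peaks were above percentile 85 of their lists, and the nearest TM3 peak was 5173 bp away. The authors' annotation places it in a distal intergenic stretch with Solyc02g161620 as the nearest gene, its start 89.1 kb away. The next was chr5:62577586-62577999, where the order of the partners was turned for FUL2, with 6.79 for FUL2-J2 and 5.75 for FUL2-J. There MC-J2 had a fold of 5.70 and MC-J one of 5.28. The third, chr8:40840185-40840573, had folds of 7.74 (FUL2-J), 6.06 (MC-J), 5.28 (FUL2-J2) and 5.95 (MC-J2), and lay 45045 bp from a TM3 peak.

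The strongest region of each other combination was picked in the same way, by its weakest percentile, so its strength follows from the choice. At chr3:66750918-66751285 FUL2-J had a fold of 5.26, FUL2-J2 5.75 and MC-J2 5.56, without MC-J, and the nearest TM3 peak was 227407 bp away. At chr11:7285744-7286138 FUL2-J had 5.53, MC-J 4.99 and FUL2-J2 4.96, without MC-J2. At chr9:26387045-26387423 FUL2-J had 5.76, MC-J2 5.45 and MC-J 4.71, without FUL2-J2, and a TM3 peak began 953 bp away. The peaks of these regions were above percentile 70 of their lists, but they were picked for this, and nothing is read from it about the missing complex. Over all 107 regions of the first combination, median percentiles were 37.3 (FUL2-J), 50.8 (FUL2-J2) and 49.2 (MC-J2). Without FUL2-J, the strongest was chr3:54521032-54521405, with 5.22 for MC-J2, 4.66 for FUL2-J2 and 4.42 for MC-J. The strongest crossed pairs were chr8:67349443-67349755, with 5.20 for FUL2-J and 4.63 for MC-J2, and chr12:54041239-54041553, with 5.05 for FUL2-J2 and 4.92 for MC-J.

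The rank of J relative to J2 varied widely between regions. The mean percentile of the J lists minus that of the J2 lists ran from −66.2 to 90 over the 111 regions with 4 complexes. Percentiles rank peaks within lists of 10449 and 10818 (J) and 4940 and 4677 (J2) peaks, so this difference is one of ranks and not of binding. By fold, FUL2-J exceeded FUL2-J2 in 60.6% of the 312 TM3-free regions with both (55.1 to 65.8%), and MC-J exceeded MC-J2 in 48.5% of 171 (41.2 to 56.0%). In the TM3-holding regions these shares were 64.0% (62.2 to 65.8%) and 39.2% (37.2 to 41.3%). The extreme for J was chr5:53227487-53227969, where FUL2-J and MC-J had folds of 6.61 and 6.49 and FUL2-J2 and MC-J2 of 3.61 and 3.22. Both J peaks were above percentile 92 and both J2 peaks below percentile 8. The extreme for J2 was chr10:38760423-38761089, with folds of 4.95 (FUL2-J2) and 5.15 (MC-J2) against 2.57 (FUL2-J) and 3.0 (MC-J). The regions were picked for this difference, which is a description.

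Between FUL2 and MC the differences were smaller. The mean percentile of the FUL2 lists minus that of the MC lists ran from −37.1 to 43.8 (median 10.6) and was above 0 in 84 of the 111 regions. At chr7:46196501-46197047, the extreme for FUL2, the folds were 5.08 for FUL2-J and 3.08 for MC-J, but 3.80 for FUL2-J2 and 3.58 for MC-J2. At chr1:79279985-79280402, the extreme for MC, MC-J had 6.11 and FUL2-J 3.80, while MC-J2 had 4.10 and FUL2-J2 4.03. By fold, the difference in both cases lay with J, and the J2 complexes of FUL2 and MC differed little. By percentile the J2 complexes differed as well. FUL2-J2 and MC-J2 were at 44.0 and 25.5 in the former region, and at 31.4 and 37.8 in the latter. The latter region is annotated to the promoter, up to 1 kb from the start, of Solyc00g028760.

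Across the TM3-free regions, folds of FUL2 and MC with the same partner followed each other more closely than folds of J and J2. Spearman's rho was 0.71 for FUL2-J2 and MC-J2 (238 regions) and 0.58 for FUL2-J and MC-J (245 regions). It was 0.35 for FUL2-J and FUL2-J2 (312 regions), 0.36 for MC-J and MC-J2 (171 regions), 0.32 for FUL2-J and MC-J2 (320 regions) and 0.48 for MC-J and FUL2-J2 (258 regions). These correlations are across regions and are descriptions, since all lists share the input and its local background. In the TM3-holding regions all 6 values were higher, from 0.49 (MC-J with MC-J2) to 0.79 (FUL2-J2 with MC-J2). On single chromosomes rho ran from 0.24 to 0.78 for the J pair and from 0.31 to 0.87 for the J2 pair, and for MC-J with MC-J2 from −0.54 to 0.65. FUL2-J had a higher fold than MC-J in 165 of 245 TM3-free regions (67.3%, 61.2 to 72.9%), and FUL2-J2 a higher fold than MC-J2 in 118 of 238 (49.6%, 43.3 to 55.9%). In the TM3-holding regions these shares were 76.8% (75.1 to 78.4%) and 39.8% (37.9 to 41.7%). Median distances between the summits of 2 complexes in TM3-free regions were 12.5 to 20 bp, with the shortest for FUL2-J2 and MC-J2.

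**Figure D4:**
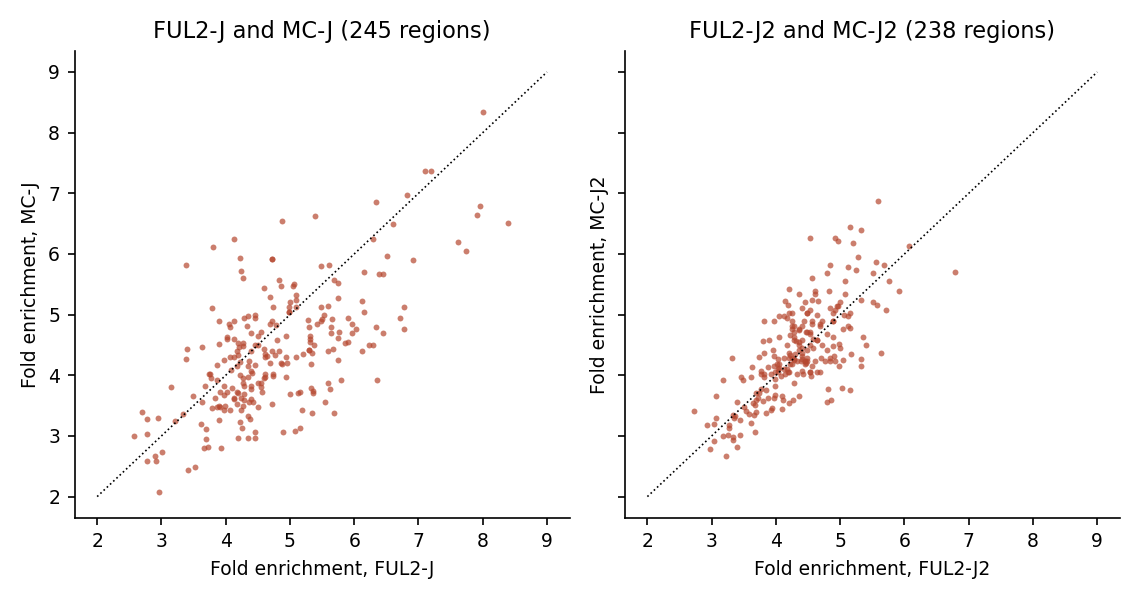
Fold enrichment of the MC complex (y axis) against that of the FUL2 complex (x axis) in regions without a TM3 peak, for J (245 regions) and J2 (238 regions); each point is a region and the dotted line marks equal folds. FUL2-J exceeded MC-J in 67.3% of the regions, whereas the J2 points lie on both sides of the line, with FUL2-J2 higher in 49.6%.

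Few TM3-free regions lay beside a TM3 peak. The distance from a TM3-free region to the nearest TM3 peak was 201 to 345858 bp, with a median of 21869 bp. It was within 500 bp in 7 regions, within 1 kb in 22 (4.71%, 3.13 to 7.03%) and within 10 kb in 142 (30.4%). In the TM3-holding regions, the longest overlap of a TM3 peak with a J or J2 peak was at least 199 bp (median 351 bp). Just inside the rule lay chr9:14601320-14601675, with folds of 4.55 (FUL2-J), 4.71 (MC-J), 4.64 (FUL2-J2) and 4.99 (MC-J2) at 201 bp from a TM3 peak, and chr3:64611684-64611993, with 3.47 (MC-J) and 3.81 (FUL2-J2) at 207 bp. Just outside it lay chr12:8319222-8319783, with an MC-TM3 peak of fold 4.0 over an overlap of 199 bp, and chr1:17899613-17900004, with an MC-TM3 peak of fold 2.70 over 224 bp. In both regions outside, FUL2-TM3 had no peak and J and J2 folds ran from 2.47 to 3.83.

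The median width of the TM3-free regions was 351 bp (269 to 755 bp), beside 352 bp for all regions, and they covered 0.171 Mb. The TM3-holding regions, which a TM3 peak can widen when it is joined, had a median of 419 bp. A local background more than 5% above the common level of its list was found for 44.1% (39.4 to 49.0%) of their FUL2-J peaks, 55.1% (49.3 to 60.7%) of MC-J, 46.3% (41.1 to 51.5%) of FUL2-J2 and 41.2% (36.1 to 46.5%) of MC-J2 peaks. In TM3-holding regions these shares were 59.7%, 66.9%, 56.6% and 60.1%. Peaks of the TM3-free regions therefore lay less often where the input itself was raised, and the part of this in the calls was not tested.

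All 12 chromosomes carried TM3-free regions, from 24 on chromosome 6 to 58 on chromosome 1, or from 0.424 per Mb on chromosome 12 to 0.745 per Mb on chromosome 5. The share of J and J2 regions without TM3 was between 8.96% (6.34 to 12.5%) on chromosome 12 and 16.0% (12.4 to 20.5%) on chromosome 5, and these intervals overlap. The unplaced sequence held 0 of the 467 regions (interval up to 0.816%), 10 of the TM3-holding and 408 of all regions. The far end of a chromosome was set at its last called peak. Within 1 Mb of an end lay 7 TM3-free regions (1.50%, 0.728 to 3.06%) and 1.52% of the TM3-holding regions, beside 19.4% of all regions. The stretch makes up 2.91% of the length, which is inside the interval of the TM3-free regions.

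Within 5 Mb of an end lay 62 TM3-free regions (13.3%, 10.5 to 16.7%) and 9.70% (8.73 to 10.8%) of the TM3-holding regions, and these intervals overlap. The same band held 26.2% of all regions and 14.6% of the length. The last 20% of the chromosomes, counted in the direction of the coordinates, held 17.6% (14.4 to 21.3%) against 12.1% (11.0 to 13.2%) of the TM3-holding and 19.7% of all placed regions. The middle 20% held 24.6% (20.9 to 28.7%) against 26.7% and 21.2%. Without the run on chromosome 8 described next, 11.8% (9.13 to 15.03%) were within 5 Mb of an end and 16.1% (13.0 to 19.8%) in the last 20%.

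Most TM3-free regions lay far from each other, with a median distance of 507007 bp to the nearest other one. The nearest region of any kind was closer, at a median of 12333 bp, and within 10 kb in 206 of the 467. Only 17 had another TM3-free region within 10 kb, and 9 of these 17 were on chromosome 8. On chromosome 7, the region with the largest excess of FUL2 had a neighbour 2335 bp away, chr7:46199383-46200030, with all 4 complexes. The folds there were 4.34 (FUL2-J), 2.96 (MC-J), 3.72 (FUL2-J2) and 3.63 (MC-J2). On chromosome 2, chr2:15743048-15743413 had the highest MC-J2 fold of all TM3-free regions, 6.88, with 5.60 for FUL2-J2, 4.94 for FUL2-J and 4.31 for MC-J. Its neighbour at 4047 bp, chr2:15738566-15739000, had the opposite order, with 6.71 for FUL2-J, 4.95 for MC-J and 4.88 for FUL2-J2 and no MC-J2 peak. On chromosome 5, chr5:33332585-33332864 and chr5:33337045-33337349 were the same crossed pair, with FUL2-J folds of 4.13 and 4.72 and MC-J2 folds of 4.41 and 4.68.

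The group on chromosome 8 was an evenly spaced run of binding regions, singled out after its values were seen. Their sequence was not analysed here, so whether the units are copies of 1 sequence, among which reads could be placed in more than 1 way, was not tested, and the folds of single units may not be separate measurements. Between chr8:67330092 and 67354232, a span of 24.1 kb, 17 regions followed each other with FUL2-J summits 1456 to 1518 bp apart (median 1491 bp). Of these, 8 were TM3-free regions, 4 were TM3-holding, and 5 met neither requirement. FUL2-J was found in all 17, with folds of 3.42 to 6.10, MC-J in 13 (2.44 to 4.92), MC-J2 in 12 (2.31 to 5.25) and FUL2-J2 in 10 (2.48 to 4.37). FUL2-TM3 had 1 peak, with a fold of 3.89, and MC-TM3 had 3, with 3.06 to 3.83. FUL2-J, whose summits define the run, had the highest fold in every unit.

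The local background in the run was above the common level. For the FUL2-J peaks it was 12 to 26 input reads (median 17), against a common level of 11.1, with 103 to 151 reads at the summits. Its part in the calls was not tested. The run included the strongest FUL2-J and MC-J2 pair, named above, which lacked MC-J and FUL2-J2. The first unit had all 4 complexes, with folds of 5.66 (FUL2-J), 4.43 (MC-J), 4.21 (FUL2-J2) and 3.55 (MC-J2), as had the fourth, with 5.65, 4.92, 3.99 and 3.67. The third unit, between them, had like folds of 4.84, 4.37, 3.96 and 4.02 and a FUL2-TM3 peak. A further TM3-free region, chr8:67320179-67320480, lay 9611 bp before the run. No other stretch of 50 kb held more than 3 TM3-free regions, against 9 here.

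**Figure D5:**
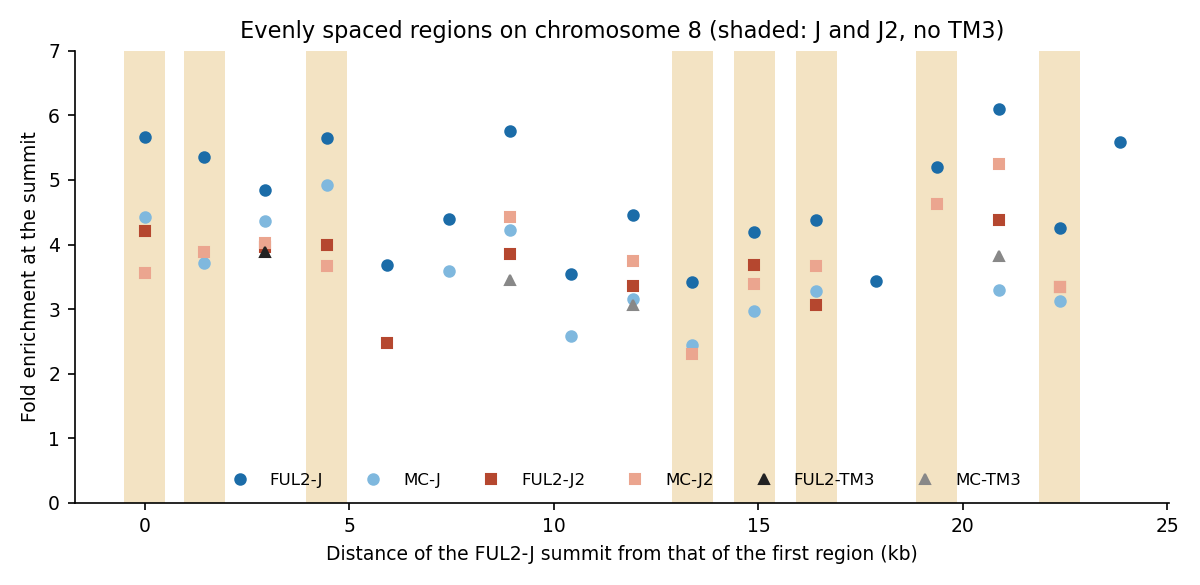
Fold enrichment at the summit (y axis) of the 6 complexes in 17 evenly spaced regions on chromosome 8, by distance of the FUL2-J summit from that of the first region (kb, x axis); each point is a peak, and shading marks the 8 regions with J and J2 but no TM3 peak. FUL2-J is present in every region at 3.42 to 6.10, and TM3 peaks appear in 4 regions at 3.06 to 3.89.

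Gene context could be read for chromosome 1, where the readable part of the authors' annotation of the FUL2-J list is complete. Of the 58 TM3-free regions there, 51 had a FUL2-J peak. By that annotation 34 of the 51 (66.7%, 53.0 to 78.0%) were distal intergenic, beside 78.7% of all FUL2-J peaks on the chromosome. Apart from the promoter region at Solyc00g028760, the regions with the highest FUL2-J −log10 q inside a gene were in an intron of Solyc01g107870, an exon of Solyc01g104490 and an intron of Solyc01g073750. In the first, chr1:93123594-93123970, the folds were 5.48 (FUL2-J), 5.13 (MC-J) and 3.91 (FUL2-J2), with no MC-J2 peak. In the exon, chr1:90782336-90782695, they were 5.64 (FUL2-J), 4.70 (MC-J), 4.13 (FUL2-J2) and 4.10 (MC-J2). In the other intron, chr1:78991409-78991864, they were 5.12 (FUL2-J), 3.71 (MC-J), 4.43 (FUL2-J2) and 4.90 (MC-J2). These regions were picked by their FUL2-J value, so that the order of FUL2-J among the complexes is not a result.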

How the data were processed

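For each complex the authors aligned Trim Galore-trimmed reads to the Moneyberg genome (HISAT2), pooled the libraries and called narrow peaks (MACS2, threshold 0.0001, versions not given in the sources used here). Each deposited list holds a fold enrichment (a ratio with a pseudocount of 1) and a −log10 p and −log10 q per peak, which the authors' peak caller wrote. The lists carry no counts and no values per library, and the name of the pooled alignment in each list refers to 2 source alignments although 3 libraries per complex are labelled, so how many libraries stand behind a list could not be settled. How the 3 input libraries, to which every fold and depth is relative, were combined is not given in the sources used here. Coordinates are those of the Moneyberg genome, counted from 1.

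Peaks were joined and summarised with pandas 2.3.3, numpy 2.4.6 and scipy 1.17.1 under Python 3.11.15, checked against bedtools 2.31.1 and drawn with matplotlib 3.10.9. Shares have 95% Wilson intervals and medians of percentiles binomial intervals, which cover counting error only. Reads at summits were solved from the fold and p, within 0.02 reads of a whole number. Joining and solving were tested on simulated data. The regions and the lists compared were chosen with earlier results of these data known. Regions named one by one were the 3 strongest with all 4 complexes by their weakest percentile, the strongest of each other combination, the extremes of J against J2 and FUL2 against MC, the nearest regions on both sides of the TM3 rule, and the genic regions of chromosome 1. Those with the highest fold in a list, close neighbours and the run on chromosome 8 were added after their values were seen. Alternatives were other joining rules, stricter peak thresholds, fold in place of −log10 q, and leaving out chromosome ends, unplaced sequence or the run. Sequences and CArG-boxes were not analysed here.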

Additional observations from a re-analysis of the deposited data

How the results depend on the processing

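Of 84 values recomputed under the alternatives, 76 stayed within the spread set for them and 8 moved. The 467 regions became 434 with a −log10 q of at least 10 and 490 with summits within 100 bp, the lowest and highest of the counts. With the 4000 strongest peaks of each list, the share of J and J2 regions without TM3 was 23.3% in place of 12.4%, and the median percentiles became 77.4 (FUL2-J), 81.7 (MC-J), 58.9 (FUL2-J2) and 57.3 (MC-J2). Fewer TM3 peaks are kept in that setting. Percentiles stayed those of the uncut lists, so leaving out weak peaks raises these medians by construction, and nothing is read from their rise. The same holds for the FUL2-J2 median of 52.5 with a −log10 q of at least 10, against 47.8. By fold, the FUL2-J2 median was 50.3, the same as for all peaks of that list. With ranks by fold, the medians were 58.4 (FUL2-J) and 62.5 (MC-J), and those of the J2 lists stayed within their intervals. The share of 1.50% near the chromosome ends became 13.3% when 5 Mb were counted as near. Leaving out the run on chromosome 8, chosen after seeing the data, left 459 regions and 12.3% without TM3. No paired analysis was possible because each list merges the libraries of a complex and carries no replicate, and for the same reason no replicate could be left out. A region counted as without TM3 may hold TM3 reads below the threshold of the peak caller, since the lists hold only called peaks.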

Other observations

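Another 103 regions held J and J2 with a single protein and no TM3, of which 73 had FUL2-J with FUL2-J2 and 30 had MC-J with MC-J2. Their peaks ranked lower than those of all TM3-free regions with both proteins, most of which held 3 or 4 complexes. In the FUL2 regions the median percentile was 35.6 (FUL2-J, 29.0 to 45.2) and 33.0 (FUL2-J2, 24.4 to 39.2), and in the MC regions 27.8 (MC-J, 16.2 to 43.8) and 23.4 (MC-J2, 13.6 to 33.3). The crossed pairs, which also held 2 complexes, had medians of 33.2 (FUL2-J) and 30.3 (MC-J2), and of 51.4 (MC-J) and 25.9 (FUL2-J2). Beside these, the FUL2 regions did not rank lower by median, while the 30 MC regions did. Their intervals overlapped those of the crossed pairs, 37.8 to 65.6 for MC-J and 22.4 to 44.9 for MC-J2.

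J with TM3 and no J2, with both FUL2 and MC, was found in 2382 regions, and J2 with TM3 and no J in 779. The median percentiles of the J peaks in the former were 45.2 (FUL2-J) and 50.5 (MC-J), and those of the J2 peaks in the latter 36.3 (FUL2-J2) and 39.1 (MC-J2). The median percentiles of the TM3-free regions, which hold both J and J2, were between 40.8 and 56.4. J with both proteins but neither J2 nor TM3 was found in 2296 regions, and J2 with both proteins alone in 315.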
